A study of Mus musculus with 8 samples.

Results

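Expression of 40 genes of DNA replication and deoxynucleotide synthesis was followed across 8 Affymetrix arrays of V6.5 mouse embryonic stem cells (ESCs). The genes were taken by name: every probe set whose only annotated symbol was one of the 40 was used, which gave 88 probe sets, of which 76 exceeded a linear signal of 50 in 1 array or more. They represented 39 of the 40 genes among 11940 genes tested. The remaining gene, Tyms (thymidylate synthase), had no probe set of its own above the minimum and was not tested. Every group held the same knockdown, a constitutive shRNA to mouse Wdr5, and cells were sorted for GFP, which was linked to a human WDR5 transgene switched on by doxycycline. The sorted cells were then cultured for days with or without doxycycline before harvest. The transgene encoded the F266A mutant, which bears a substitution in the pocket where the protein binds RNA, or the wild-type protein (WT). The groups were F266A -dox, F266A +dox, WT -dox and WT +dox, with 2 arrays described as biological duplicates in each, and +dox cells received doxycycline at 2 µg per mL. One line of each transgene is described, so the mutation and other differences between the lines cannot be told apart, and without an unmodified control no group shows these genes at normal Wdr5 levels. An effect of doxycycline itself cannot be told apart from that of the transgene.

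Replication begins when the origin recognition complex, CDC6 and CDT1 load the MCM helicase onto DNA. CDC45 and the GINS complex switch that helicase on at S phase entry, the polymerase alpha-primase complex starts each new strand, and polymerases delta and epsilon extend it with the help of the sliding clamp PCNA. Mouse ESCs cycle rapidly with a short G1 phase and keep transcripts of these genes abundant. WDR5 is an adaptor of the complexes that methylate histone H3 at lysine 4, a mark of active promoters.

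Duplicate arrays correlated at 0.9969 to 0.9977 over all 45101 probe sets and arrays of different groups at 0.9853 to 0.9958. The probe set of Wdr5 itself read 9.31 and 9.27 on the log2 scale in F266A -dox, 8.59 and 8.56 in F266A +dox, 9.45 and 9.35 in WT -dox, and 8.35 and 8.32 in WT +dox cells. Both -dox groups thus lay above both +dox groups (0.71 ± 0.07 in F266A and 1.06 ± 0.07 in WT cells, SE). Whether this mouse probe set also reads the human transgene was not tested, so its level is no direct measure of the knockdown. The 10 ESC markers were over the minimum in every group, with summed linear signals of 48200 to 50500 in F266A -dox, 56200 in F266A +dox, 58400 to 59500 in WT -dox and 61400 to 62000 in WT +dox arrays. Of 10 extraembryonic and endoderm markers, 4 were over the minimum in F266A -dox cells and 2 in each other group (summed signals of 577 to 588 in F266A -dox, 456 to 466 in F266A +dox, 477 to 490 in WT -dox and 470 to 483 in WT +dox cells). Of 9 fibroblast markers measured, 1, Twist1, was over it in F266A -dox cells and 0 elsewhere (233 to 239 in F266A -dox, 214 to 230 in F266A +dox, 211 to 212 in WT -dox and 201 to 202 in WT +dox cells). These sums average all probe sets of a gene. Col1a1, Col3a1 and Dcn were under the minimum in all groups, while the passing signal of Col1a2 was 6.14 and 6.71 in F266A -dox, 6.13 and 5.99 in F266A +dox, 5.68 and 5.58 in WT -dox and 5.88 and 5.70 in WT +dox arrays. The array's control probe set for 18S ribosomal RNA (its middle part) read 9.60 and 9.57 in F266A -dox, 10.6 and 10.3 in F266A +dox, 11.1 and 10.8 in WT -dox and 11.4 and 11.0 in WT +dox cells, so that it moved with the same order of groups as several members below. The part of the marker and 18S values in the results was not tested.

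Replication genes moved little and in both directions. Over the 39 genes the median range between the 4 group means was 0.23 on the log2 scale, against 0.30 for all tested genes, and 17 genes had a range under 0.2. Mcm2 and Pola1 had a range of 0.5 or more, and none reached a 2-fold difference in any comparison. A gene was called at a limma adjusted p under 0.05, with Benjamini-Hochberg adjustment over all 11940 genes; values are log2 differences ± SE with 2 arrays a group. In at least 1 of 6 group comparisons 21 members (53.8%) were called, against 61.1% of all tested genes, and 18 in none. A lower signal from bulk cells can come from fewer cells in S phase or from less RNA per cell, which cannot be told apart here.

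The comparisons set against each other groups that differed in the line, in doxycycline, or in both. F266A +dox against WT +dox cells gave 7 called members, 2 higher and 5 lower (17.9%), beside 28.3% of all genes called, 15.9% higher and 12.5% lower. Withdrawal of doxycycline from WT cells gave 7, of which 6 were higher and 1 lower in WT -dox (17.9%, beside 31.5% of all genes, 16.1% higher and 15.4% lower). Withdrawal from F266A cells gave 6, of which 5 were higher and 1 lower in F266A -dox (15.4%, beside 19.5%, 8.94% higher and 10.6% lower). F266A -dox against WT -dox gave 9 calls, 2 higher and 7 lower (23.1%, beside 27.4%, 14.0% higher and 13.4% lower). The comparison with the most calls set F266A -dox against WT +dox cells and gave 17, with 7 higher and 10 lower (43.6%, beside 50.9%, 25.9% higher and 25.0% lower). F266A +dox differed from WT -dox in 1 member, which was lower (2.56%, beside 13.5%, 9.09% higher and 4.41% lower). In that comparison 34 of the 39 members had a difference below 0, beside 6139 of all 11940 genes. At an unadjusted limma p under 0.05, 0 members were higher and 12 lower, beside 1947 and 1479 of all genes. Median differences of the members ranged from -0.08 to 0.04 over these 6 comparisons. Comparisons that share a group share its arrays, and their calls are not independent of each other. Where leaving out single arrays ended a call, the array whose removal gave the highest adjusted p is named beside it. Leaving out another array often ended the same call.

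**Figure D1:**
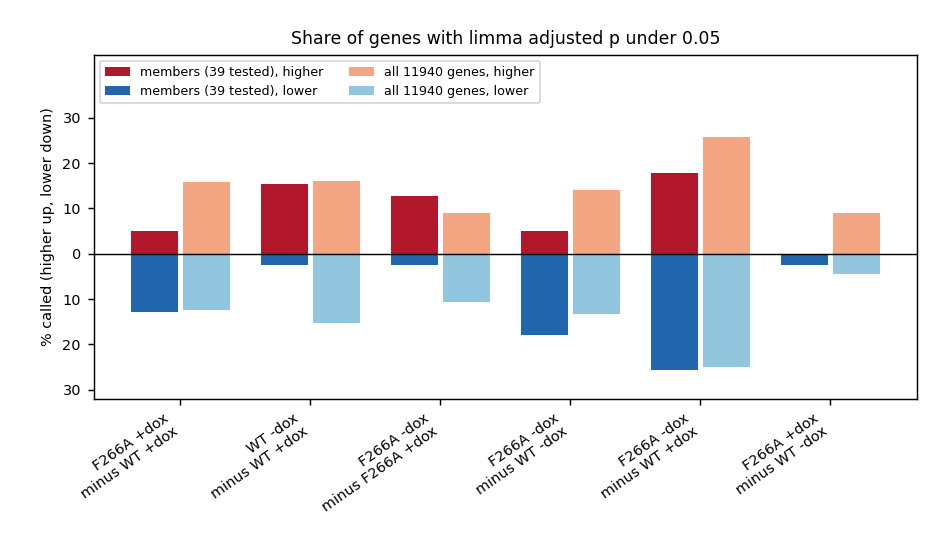
Share of genes with a limma adjusted p under 0.05 in each comparison (percent, higher drawn upwards and lower downwards), for the 39 members (dark bars) and for all 11940 tested genes (light bars). The member shares are at or below those of all genes when both directions are added, with the largest member shares, 7 genes higher and 10 lower, in F266A -dox against WT +dox.

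**Figure D2:**
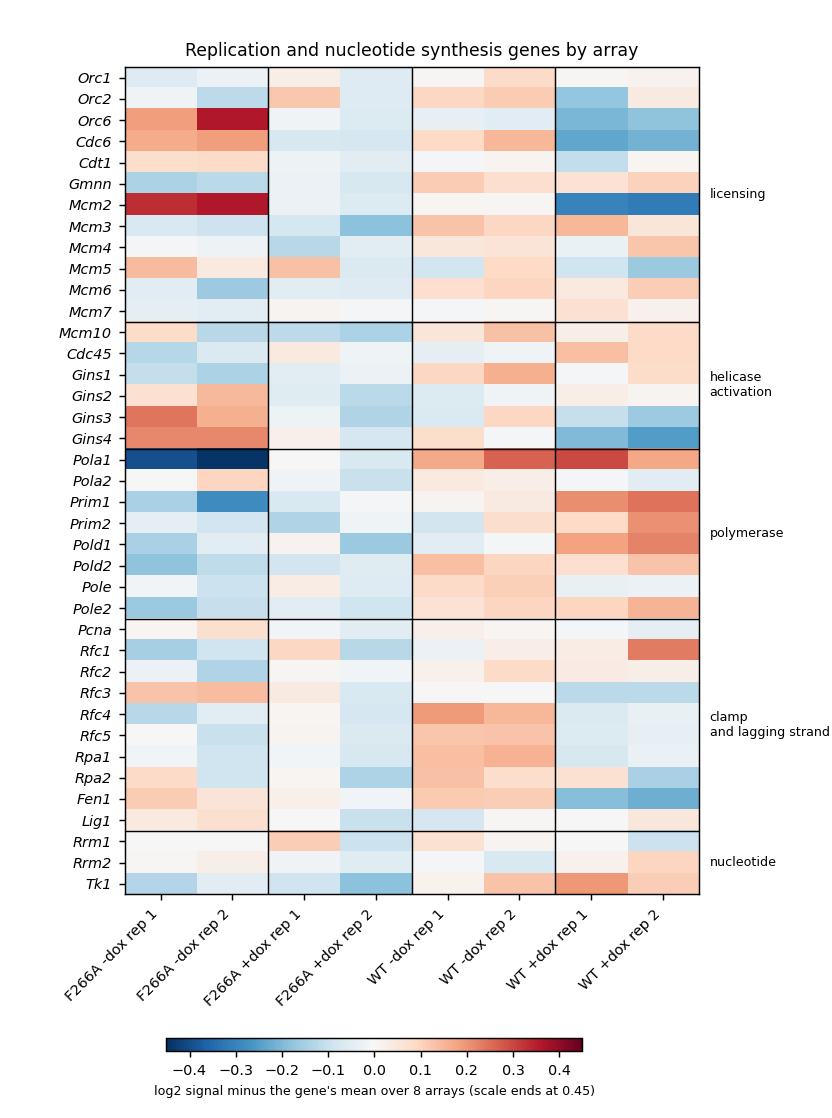
Log2 signal of the 39 tested members in each of 8 arrays, minus the gene's mean over the arrays, in rows by role and columns by group (red above, blue below that mean). Mcm2 is highest in both F266A -dox arrays and lowest in both WT +dox arrays, and Pola1 is lowest in both F266A -dox arrays.

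Among the 12 licensing genes, which prepare origins in G1, Mcm2, Cdc6 and Orc6 rose and Gmnn and Mcm6 fell in F266A -dox against WT +dox cells, while the other 7 were not called. Mcm2, a subunit of the hexameric MCM helicase, read 11.14 and 11.17 in F266A -dox, 10.78 and 10.75 in F266A +dox, 10.82 and 10.81 in WT -dox and 10.51 and 10.49 in WT +dox arrays. Both F266A -dox arrays lay above all others and both WT +dox arrays below all others, while F266A +dox and WT -dox lay between and were not called apart. Mcm2 was 0.65 ± 0.06 higher in F266A -dox than in WT +dox cells, or 1.57-fold (limma adjusted p = 2.64e-05), and its 2 probe sets gave 0.65 and 0.66. It also rose on withdrawal in F266A cells (0.39, adjusted p = 0.00354) and in WT cells (0.31, adjusted p = 0.00459), in F266A -dox against WT -dox (0.34, adjusted p = 0.00354) and in F266A +dox against WT +dox cells (0.26, adjusted p = 0.0119). The last call was lost without F266A +dox replicate 1 (adjusted p = 0.0719) or WT +dox replicate 2, and the other 4 held without any single array.

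The means of the other MCM subunits were not called higher. In F266A -dox against WT +dox cells Mcm5 differed by 0.22 (adjusted p = 0.0688), Mcm4 by -0.06, Mcm7 by -0.09, Mcm3 by -0.18 (adjusted p = 0.0532), and Mcm6 fell by 0.18 (adjusted p = 0.0465). Of the 3 probe sets of Mcm5, each tested on its own with limma, the brighter ones were called higher (0.44, adjusted p = 0.0019, and 0.21, adjusted p = 0.0426) and the dimmest was at 0.01. Mcm5 lies on chromosome 8, whose tested genes had a median of 0.20 in this comparison. Centred on its chromosome, the Mcm5 mean differed by 0.02 (limma adjusted p = 0.863). Mcm3 was called in F266A +dox against WT +dox cells, where it read 9.66 and 9.55 in F266A +dox and 9.89 and 9.79 in WT +dox arrays, which do not overlap. That difference was -0.23 ± 0.07 (adjusted p = 0.0336), and it was not called without WT +dox replicate 1 (-0.19, adjusted p = 0.172). The Mcm6 difference was not called in 7 of the 8 fits that left out 1 array (-0.13 without F266A -dox replicate 2).

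Cdc6, the ATPase that loads MCM together with CDT1, read 10.18 and 10.20 in F266A -dox, 9.94 and 9.94 in F266A +dox, 10.11 and 10.17 in WT -dox and 9.78 and 9.80 in WT +dox arrays. Both -dox groups lay above both +dox groups. The rise was 0.34 ± 0.06 in WT -dox over WT +dox (adjusted p = 0.0032) and 0.25 ± 0.06 in F266A -dox over F266A +dox (adjusted p = 0.0226), and F266A -dox exceeded WT +dox by 0.40 (adjusted p = 0.000603). Within F266A cells the call was lost without F266A +dox replicate 1 (0.25, adjusted p = 0.0947). Orc6, the smallest subunit of the origin recognition complex, read 10.68 and 10.85 in F266A -dox, 10.48 and 10.43 in F266A +dox, 10.45 and 10.44 in WT -dox and 10.29 and 10.31 in WT +dox arrays. The F266A -dox arrays were above all others, and replicate 2 was the higher of them. Orc6 rose by 0.47 ± 0.07 in F266A -dox over WT +dox (adjusted p = 0.000613), by 0.32 over F266A +dox (adjusted p = 0.0178) and by 0.32 over WT -dox cells (adjusted p = 0.0116). Without F266A -dox replicate 2 the differences from F266A +dox and WT -dox were both 0.23 and not called (adjusted p = 0.0972 and 0.0766).

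Gmnn encodes geminin, which blocks re-licensing by binding CDT1. It was lower in F266A -dox than in WT -dox (-0.23 ± 0.06, adjusted p = 0.0264) and WT +dox cells (-0.22 ± 0.06, adjusted p = 0.0175). The call against WT -dox was lost without WT -dox replicate 1 (adjusted p = 0.139), and that against WT +dox without WT +dox replicate 2 (adjusted p = 0.083). Cdt1 differed by 0.13, Orc1 by -0.05 and Orc2 by 0.00 in F266A -dox against WT +dox cells, none of them called. Of the 2 passing probe sets of Cdt1, each tested on its own with limma, the brighter was at -0.01. The other was called higher (0.28, adjusted p = 0.0179). Centred on its chromosome, the Cdt1 mean differed by -0.07. The small Orc2 value was the mean of 3 probe sets that ran in opposite directions, at 0.23, 0.20 and -0.45.

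Of the 6 helicase activation genes, the GINS subunits Gins4 and Gins3 rose and Cdc45 fell in F266A -dox against WT +dox cells, and Gins1, Gins2 and Mcm10 were not called. Gins4 read 10.47 and 10.46 in F266A -dox, 10.27 and 10.17 in F266A +dox, 10.33 and 10.24 in WT -dox and 10.05 and 10.00 in WT +dox arrays. WT +dox was lowest and F266A -dox highest, with the middle groups overlapping. The difference was 0.44 ± 0.07 for F266A -dox over WT +dox (adjusted p = 0.000619), 0.26 for WT -dox over WT +dox (adjusted p = 0.0193) and 0.24 for F266A -dox over F266A +dox (adjusted p = 0.0376). The WT call was lost without WT -dox replicate 1 (0.21, adjusted p = 0.134) and the F266A call without F266A +dox replicate 2 (0.19, adjusted p = 0.177).

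Gins3 read 7.03 and 6.95 in F266A -dox, 6.77 and 6.65 in F266A +dox, 6.73 and 6.88 in WT -dox and 6.69 and 6.63 in WT +dox arrays. The F266A -dox arrays were above the other 6, among which F266A +dox overlapped both WT groups and WT -dox lay above WT +dox. It exceeded WT +dox by 0.33 ± 0.08 (adjusted p = 0.00619) and F266A +dox by 0.28 (adjusted p = 0.0355), the second call being lost without F266A +dox replicate 2 (0.22, adjusted p = 0.175). Gins1, the partner subunit PSF1, ran the other way in one comparison: it read 7.98 and 7.95 in F266A -dox, 8.04 and 8.06 in F266A +dox, 8.18 and 8.25 in WT -dox and 8.08 and 8.17 in WT +dox arrays. Gins1 fell by 0.25 in F266A -dox against WT -dox cells (adjusted p = 0.022), a call lost without WT -dox replicate 2 (-0.22, adjusted p = 0.144).

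Cdc45, which joins MCM and GINS in the active helicase, read 7.41 and 7.47 in F266A -dox, 7.58 and 7.52 in F266A +dox, 7.49 and 7.52 in WT -dox and 7.67 and 7.62 in WT +dox arrays. F266A -dox arrays were below WT +dox arrays by 0.21 ± 0.07 (adjusted p = 0.0247; 0.109 without WT +dox replicate 1). Its 2 probe sets gave -0.43 and 0.01, so the fall rests on 1 of them. Gins2 differed by 0.08 and Mcm10, which helps activate the loaded helicase, by -0.08 in F266A -dox against WT +dox cells.

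The 8 polymerase genes included 5 that fell in F266A -dox against WT +dox cells and 0 that rose (limma; also 0 higher and 6 lower at an unadjusted p under 0.05), or 62.5% lower beside 25.0% of all genes lower and 25.9% higher. Pola1, the catalytic subunit of polymerase alpha, changed most: 9.38 and 9.33 in F266A -dox, 9.77 and 9.70 in F266A +dox, 9.95 and 10.04 in WT -dox and 10.07 and 9.95 in WT +dox arrays. F266A -dox arrays were below all others and F266A +dox arrays below all WT arrays, while the WT groups overlapped. Pola1, measured by 1 passing probe set, fell by 0.65 ± 0.07 in F266A -dox against WT +dox (adjusted p = 7.74e-05), differed by -0.64 against WT -dox (adjusted p = 0.000291) and by -0.38 against F266A +dox (adjusted p = 0.00757). F266A +dox cells differed in it by -0.27 from WT +dox (adjusted p = 0.023) and by -0.26 from WT -dox cells (adjusted p = 0.0492), the 1 member called between those groups. Withdrawal in WT cells gave -0.01. With no expression filter, which averages in a second, dim probe set, the F266A -dox differences became -0.27 against WT +dox (adjusted p = 0.0231), -0.33 against WT -dox (adjusted p = 0.0191) and -0.13 against F266A +dox (adjusted p = 0.339), and that of F266A +dox against WT +dox -0.14 (adjusted p = 0.292); gene-wise variances also ended the last 2 calls (adjusted p = 0.0528 and 0.06). The fall against F266A +dox was not called without F266A +dox replicate 1 (-0.35, adjusted p = 0.0588), that of F266A +dox against WT +dox without WT +dox replicate 1 (-0.21, adjusted p = 0.138), and that of F266A +dox against WT -dox whichever of the 8 arrays was left out (adjusted p up to 0.253, without WT -dox replicate 2).

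Prim1, the primase subunit that makes the RNA primer, read 10.64 and 10.51 in F266A -dox, 10.72 and 10.78 in F266A +dox, 10.80 and 10.83 in WT -dox and 11.00 and 11.03 in WT +dox arrays. No 2 groups overlapped, and F266A -dox was lowest, followed by F266A +dox, WT -dox and WT +dox. Prim1 fell by 0.44 ± 0.07 in F266A -dox against WT +dox (adjusted p = 0.000675), with both probe sets lower (-0.34 and -0.55). The difference was -0.26 in F266A +dox against WT +dox (adjusted p = 0.0212; 0.118 without F266A +dox replicate 1) and -0.24 in F266A -dox against WT -dox cells (adjusted p = 0.0316; 0.175 without F266A -dox replicate 2, and 0.256 with its brightest probe set alone, which gave -0.11). The partners Pola2 and Prim2 were not called in F266A -dox against WT +dox, at 0.08 (95% interval -0.08 to 0.23) and -0.21 (-0.40 to -0.03, adjusted p = 0.0536). The Prim2 value was the mean of 3 passing probe sets. The brightest read 9.085 and 9.276 in F266A -dox and 9.355 and 9.509 in WT +dox arrays. The next read 8.96 and 8.749 in F266A -dox and 9.096 and 9.373 in WT +dox arrays. Both were thus lower in F266A -dox without overlap. The dimmest overlapped, at 5.736 and 5.634 in F266A -dox and 5.734 and 5.65 in WT +dox arrays.

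Pold1, the catalytic subunit of polymerase delta, read 9.49 and 9.59 in F266A -dox, 9.65 and 9.47 in F266A +dox, 9.59 and 9.63 in WT -dox and 9.82 and 9.86 in WT +dox arrays. WT +dox lay above the other 3 groups, which overlapped. The differences from WT +dox were -0.30 ± 0.08 in F266A -dox (adjusted p = 0.0107), -0.28 in F266A +dox (adjusted p = 0.0272) and -0.23 in WT -dox cells (adjusted p = 0.0497). They were not called without F266A -dox replicate 1 (adjusted p = 0.0616), F266A +dox replicate 2 (0.163) and WT -dox replicate 1 (0.192), in that order.

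Pold2, the delta subunit that bridges to the accessory subunits, read 10.69 and 10.76 in F266A -dox, 10.79 and 10.82 in F266A +dox, 11.01 and 10.97 in WT -dox and 10.95 and 11.00 in WT +dox arrays. Here both F266A groups lay below both WT groups. F266A -dox differed by -0.26 ± 0.07 from WT -dox (adjusted p = 0.0156; 0.0956 without WT -dox replicate 1) and by -0.25 from WT +dox (adjusted p = 0.0104; 0.0609 without WT +dox replicate 2). Pole2, the second subunit of polymerase epsilon, differed in F266A -dox by -0.26 from WT +dox (adjusted p = 0.00843; 0.0524 without WT +dox replicate 2) and by -0.22 from WT -dox cells (adjusted p = 0.0362; 0.176 without WT -dox replicate 2). Pole, the epsilon catalytic subunit, differed from WT +dox by -0.03 (-0.18 to 0.13).

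**Figure D3:**
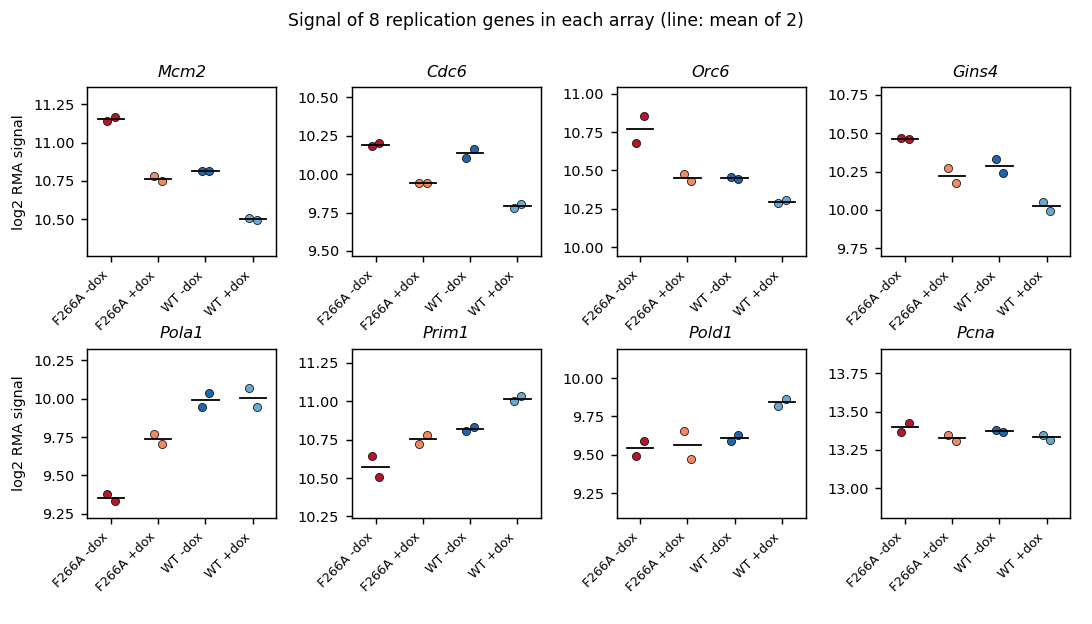
Log2 RMA signal of 8 members in each array (points) with the mean of 2 arrays (line), groups from F266A -dox at the left to WT +dox at the right, each panel spanning the same log2 range. Mcm2, Cdc6, Orc6 and Gins4 were higher and Pola1, Prim1 and Pold1 lower in F266A -dox than in WT +dox cells, and Pcna differed by 0.06 and was not called.

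Promoters are shown for Mcm2 and Cdc6, which rose, and Pola1 and Prim1, which fell, a choice made after their values and motifs were seen; Orc6 (0.47), whose promoter held a CCAAT box and no E2F motif, and Gins4 (0.44) differed by more than Cdc6 (0.40). Start regions are printed because E2F factors, which drive S phase genes, and NF-Y are known to act there, and such regions also carry H3 lysine 4 methylation. RefSeq promoter sequences of GRCm38.p6 were matched for 32 of the 40 members. Each line gives the 180 bases before the start of the gene, 5′ to 3′ on its own strand, with E2F motifs (TTTCGCGC, TTTGGCGC, TTTCCCGC or TTTGCCGC, either strand) and CCAAT boxes (CCAAT, either strand) in capitals.
Mcm2 (chr6:88898781-88898960, minus strand): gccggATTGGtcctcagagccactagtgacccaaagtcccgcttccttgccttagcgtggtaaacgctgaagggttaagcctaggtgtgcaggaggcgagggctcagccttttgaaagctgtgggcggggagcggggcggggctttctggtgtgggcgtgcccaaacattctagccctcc
Cdc6 (chr11:98907971-98908150, plus strand): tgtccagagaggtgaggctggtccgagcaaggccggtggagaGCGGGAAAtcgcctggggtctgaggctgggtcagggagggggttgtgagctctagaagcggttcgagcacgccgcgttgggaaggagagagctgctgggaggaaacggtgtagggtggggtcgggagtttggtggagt
Pola1 (chrX:93632156-93632335, minus strand): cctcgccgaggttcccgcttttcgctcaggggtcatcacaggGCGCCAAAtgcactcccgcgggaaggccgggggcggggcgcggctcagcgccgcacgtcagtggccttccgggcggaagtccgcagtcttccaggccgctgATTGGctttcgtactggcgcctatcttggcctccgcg
Prim1 (chr10:128015035-128015214, plus strand): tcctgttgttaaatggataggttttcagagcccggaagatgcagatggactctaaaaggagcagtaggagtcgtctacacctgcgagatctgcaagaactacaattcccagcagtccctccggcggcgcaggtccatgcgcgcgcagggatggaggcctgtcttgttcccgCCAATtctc

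An E2F motif stood 138 bases before the start in both Cdc6, which rose, and Pola1, which fell, and none in Mcm2 or Prim1 within 250 bases. A CCAAT box began 175 bases before the start in Mcm2, 37 in Pola1 and 9 in Prim1. Over the 250 bases before the start, 8 of 32 members held one of the E2F motifs (25.0%), against 4.05% of 9640 tested genes with a promoter and 1.86% of 32851 promoters in the table. CCAAT occurred in 21 of 32 members (65.6%), against 40.6% of those tested genes and 33.8% of the table. Among tested members with a promoter, the E2F motif was in 3 of 6 that were higher, 2 of 9 that were lower and 3 of 16 that were not called in F266A -dox against WT +dox cells. For CCAAT these counts were 4 of 6, 6 of 9 and 11 of 16, and for the MYC E-box CACGTG, held by 5 of 32 members (15.6%) against 10.0% of tested genes, 1 of 6, 1 of 9 and 2 of 16. No E2F match overlapped a CCAAT match in the lines shown, and a match is not measured binding.

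Of the 10 clamp and lagging strand genes, Fen1 and Rfc3 rose and Rfc1 fell in F266A -dox against WT +dox cells, and the other 7 were not called. Pcna, the sliding clamp, read 13.36 and 13.43 in F266A -dox, 13.35 and 13.31 in F266A +dox, 13.38 and 13.37 in WT -dox and 13.35 and 13.32 in WT +dox arrays. Its difference in F266A -dox against WT +dox was 0.06 with a 95% interval of -0.08 to 0.21, and it was called in none of the 6 group comparisons. Lig1, the ligase that seals Okazaki fragments, differed by 0.03 (-0.13 to 0.19), Rfc5 by 0.00 (-0.15 to 0.15) and Rpa1 by 0.00 (-0.15 to 0.15) in the same comparison.

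Fen1, the nuclease that trims Okazaki fragment flaps, read 10.74 and 10.68 in F266A -dox, 10.65 and 10.61 in F266A +dox, 10.74 and 10.73 in WT -dox and 10.43 and 10.40 in WT +dox arrays. WT +dox lay below the other 3 groups. Fen1 was higher than in WT +dox by 0.32 ± 0.06 in WT -dox (adjusted p = 0.00468), by 0.29 in F266A -dox (adjusted p = 0.0039) and by 0.21 in F266A +dox cells (adjusted p = 0.0333; 0.145 without F266A +dox replicate 1). Both Fen1 probe sets rose in F266A -dox against WT +dox (0.36 and 0.23).

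The clamp loader subunits, which open PCNA and close it around DNA, were split. Rfc3 read 9.21 and 9.22 in F266A -dox, 9.12 and 9.02 in F266A +dox, 9.09 and 9.09 in WT -dox and 8.96 and 8.96 in WT +dox arrays. F266A -dox was highest and WT +dox lowest, 0.25 ± 0.07 apart (adjusted p = 0.0097). Rfc4 stood out in WT -dox instead, at 10.02 and 10.09 in F266A -dox, 10.15 and 10.07 in F266A +dox, 10.33 and 10.29 in WT -dox and 10.08 and 10.11 in WT +dox arrays. It was the only member called in both directions, higher in WT -dox than in WT +dox (0.22, adjusted p = 0.0347; 0.166 without WT -dox replicate 1) and lower in F266A -dox than in WT -dox (-0.26, adjusted p = 0.02; 0.112 without WT -dox replicate 1).

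Rfc1, the large loader subunit, read 9.54 and 9.60 in F266A -dox, 9.79 and 9.57 in F266A +dox, 9.67 and 9.72 in WT -dox and 9.73 and 9.93 in WT +dox arrays. F266A -dox differed from WT +dox by -0.25 ± 0.09 (adjusted p = 0.0475; 0.283 without WT +dox replicate 2), but its 3 probe sets gave -0.64, -0.13 and 0.01, and the brightest of them showed no fall. Rpa1, a subunit of the single-strand binding protein RPA, was higher in WT -dox than in WT +dox by 0.20 ± 0.07 (adjusted p = 0.0491; 0.191 without WT -dox replicate 2). Rfc2 (-0.11) and Rpa2 (0.04) were not called in F266A -dox against WT +dox cells.

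Nucleotide synthesis was represented by 3 tested genes. Tk1, the thymidine kinase of the salvage route, read 9.36 and 9.44 in F266A -dox, 9.40 and 9.30 in F266A +dox, 9.51 and 9.62 in WT -dox and 9.69 and 9.60 in WT +dox arrays. Both F266A groups lay below both WT groups. Tk1 differed from WT +dox by -0.29 ± 0.08 in F266A +dox (adjusted p = 0.0181; 0.105 without F266A +dox replicate 2) and by -0.24 in F266A -dox cells (adjusted p = 0.0225; 0.117 without WT +dox replicate 1). Rrm1 and Rrm2, the subunits of the ribonucleotide reductase that supplies S phase, differed by 0.05 (-0.14 to 0.23) and -0.04 (-0.19 to 0.11) in F266A -dox against WT +dox and were called in none of the 6 group comparisons.

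**Figure D4:**
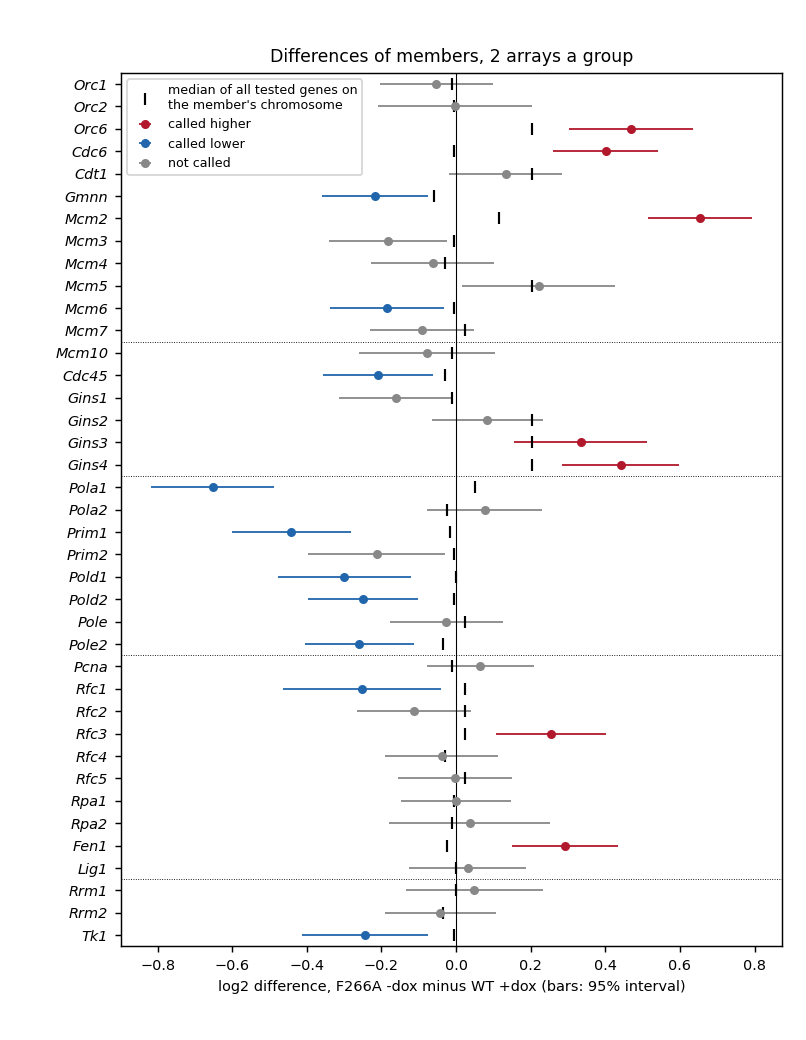
Log2 difference of each tested member in F266A -dox minus WT +dox cells with its 95% interval from limma (2 arrays a group), in order of role, red for higher, blue for lower and grey for not called. Black ticks mark the median difference of all tested genes on the member's chromosome, which for the chromosome 8 genes Orc6, Cdt1, Mcm5, Gins2, Gins3 and Gins4 is 0.20.

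Whether withdrawal acted differently in the lines was tested as an interaction, the withdrawal difference in F266A minus that in WT cells. It called 0 members with limma, beside 5.15% of all genes, while 4 had an unadjusted p under 0.05 (Pola1 -0.37, Rfc4 -0.27, Gins2 0.25 and Fen1 -0.24, adjusted p from 0.0796 to 0.163). With a trended and robust variance prior 3 were called, Pola1, Rfc4 and Fen1 (adjusted p from 0.0158 to 0.0472). The interval for Pola1 ran from -0.60 to -0.13.

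Position on the genome moved with part of these values. Of the 39 genes, 6 lie on chromosome 8 (Orc6, Cdt1, Mcm5, Gins2, Gins3 and Gins4), and the median of all 652 tested chromosome 8 genes was 0.20 in F266A -dox against WT +dox, the highest of 20 chromosomes. It was 0.12 in F266A -dox against F266A +dox, 0.15 in F266A -dox against WT -dox, 0.09 in F266A +dox against WT +dox and 0.04 in WT -dox against WT +dox cells. With each gene centred on its chromosome in F266A -dox against WT +dox, Orc6 (0.27, adjusted p = 0.0128) and Gins4 (0.24, adjusted p = 0.0101) stayed called and Gins3 did not (0.13, adjusted p = 0.162). In F266A -dox against F266A +dox cells, Orc6 (adjusted p = 0.0851), Gins3 (0.152) and Gins4 (0.176) all lost their calls, as did Orc6 against WT -dox (0.115). Mcm2 lies on chromosome 6, whose median was 0.12, the next highest, and kept a centred difference of 0.54 (adjusted p = 8.01e-05). Gmnn, on chromosome 13, also lost its calls after centring (adjusted p = 0.053 against WT +dox and 0.0593 against WT -dox). The part of the chromosome-wide shift in the members' values was not tested. Genes of the other lists below are given without centring on their chromosome.

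Of 33 further replication factors, 6 were higher and 8 lower in F266A -dox than in WT +dox cells (42.4% called, beside 50.9% of all genes; median -0.08), with Chtf8, a part of an alternative clamp loader (0.56), and Pole3, a small polymerase epsilon subunit (0.32), the most raised. Mcm8, a helicase related to the MCM subunits (-0.65), and Rnaseh2b, a subunit of the nuclease that removes ribonucleotides from DNA (-0.63), were the most lowered. In F266A +dox against WT +dox cells 2 were higher and 4 lower (18.2%, beside 28.3%), Pole3 (0.25) and Chtf8 (0.25) against Rnaseh2b (-0.46) and Mcm8 (-0.40). WT withdrawal raised 3 and lowered 6 (27.3%, beside 31.5%), among them Tipin (0.28), Chtf8 (0.27), Ctc1 (-0.45) and Mcm8 (-0.44), and F266A withdrawal raised 2, Pole4 (0.36) and Chtf8 (0.31), and lowered 3 (15.2%, beside 19.5%), including Ctc1 (-0.43). Mcm9, also called lower there, read 5.38 and 5.16 in F266A -dox, under the minimum of 5.64, and 5.75 and 5.57 in F266A +dox arrays, so no fold is given for it.

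A larger difference lay in a further gene of deoxynucleotide supply. Rrm2b, the p53-responsive small subunit of ribonucleotide reductase, read 5.93 and 5.98 in F266A -dox, 6.91 and 6.79 in F266A +dox, 6.68 and 6.85 in WT -dox and 7.92 and 7.94 in WT +dox arrays. WT +dox was highest and F266A -dox lowest, with F266A +dox and WT -dox overlapping in between. Rrm2b fell by 1.98 in F266A -dox against WT +dox (adjusted p = 2.57e-07), by 1.16 on withdrawal in WT (adjusted p = 1.89e-05) and by 0.90 on withdrawal in F266A cells (adjusted p = 0.000282), whereas Rrm1 and Rrm2 were not called. Of 13 other deoxynucleotide supply genes measured, 6 were higher and 2 lower in F266A -dox than in WT +dox (46.2% higher and 15.4% lower, beside 25.9% and 25.0% of all genes; median 0.21), including the triphosphate hydrolase Samhd1 (0.44), the nucleoside diphosphate kinase Nme1 (0.39) and Shmt1, a folate enzyme (-0.26). The same list had 3 higher and 1 lower in F266A +dox against WT +dox (30.8% called, beside 28.3%; Rrm2b -1.08, adjusted p = 1.99e-05, Nudt1 0.39, Nme1 0.30), 3 higher and 1 lower on WT withdrawal (30.8%, beside 31.5%; Nudt1 0.45, Nme1 0.34, Rrm2b -1.16), and 1 each way on F266A withdrawal (15.4%, beside 19.5%; Dut 0.30, Rrm2b -0.90).

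Of 16 measured genes of de novo purine and pyrimidine synthesis, 5 were higher and 2 lower in F266A -dox than in WT +dox cells (43.8% called, beside 50.9% of all genes; median 0.08). Prps2, which makes the ribose phosphate donor, read 8.06 and 7.97 in F266A -dox, 8.09 and 7.91 in F266A +dox, 7.70 and 7.75 in WT -dox and 7.02 and 7.15 in WT +dox arrays. Both WT +dox arrays lay below all others, by 0.93 from F266A -dox (adjusted p = 1.82e-05), 0.92 from F266A +dox (adjusted p = 7e-05) and 0.65 from WT -dox (adjusted p = 0.000519). In F266A -dox against WT +dox Adss, a purine enzyme, was higher (0.36), and Paics (-0.31) and Ctps2 (-0.24), which act in purine and CTP synthesis, were lower. WT withdrawal raised 5 and lowered 1 of this list (37.5%, beside 31.5%; Dhodh 0.27, Cad -0.24), F266A withdrawal raised 1 (6.25%, beside 19.5%; Dhodh 0.28), and F266A +dox against WT +dox had 1 higher (Prps2) and 1 lower (Paics -0.20; 12.5%, beside 28.3%).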

How the data were processed

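The authors sorted mouse ESCs for GFP, cultured them for days with or without doxycycline and hybridised their RNA to Affymetrix mouse arrays. They deposited log2 values of 45101 probe sets, summarised by RMA in R 2.11.1 per the labels. These values were used as deposited. Arrays have no read depth, and their number, 2 a group, limits precision. Probe sets with 1 symbol and a linear signal over 50 (log2 5.64) in 1 array or more were averaged per gene, which gave 11940 genes. The 4 group means were fitted to all 8 arrays in limma 3.58.1 under R 4.3.3, with 4 residual and 5.32 prior degrees of freedom, two-sided tests and Benjamini-Hochberg adjustment; SAM, the authors' test, was not run. The code was tested on simulated data. Members, gene lists and tests were chosen with earlier results of these data known. All 40 members are accounted for; arrays are printed for up to 4 called members per role with the largest changes and for Pcna, chosen after its values were seen, and for other lists up to 2 called genes per direction are named, with Wdr5 in addition. Alternatives covered filters, probe set choice, normalization, variance prior, thresholds, a replicate block and leaving out each array; centring on chromosomes and a crossed block were chosen after seeing the data. Promoter sequences are RefSeq's, 250 bases before the start.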

Additional observations from a re-analysis of the deposited data

How the results depend on the processing

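The counts of called members given in the report are 7 for F266A +dox against WT +dox, 7 and 6 for withdrawal in WT and F266A cells, 9 for F266A -dox against WT -dox, 17 for F266A -dox against WT +dox, 1 for F266A +dox against WT -dox and 0 for the interaction. Of 47 calls, 14 held in all of 19 settings that kept the threshold: Mcm2 in 4 comparisons, Cdc6 and Fen1 in F266A -dox against WT +dox and in WT withdrawal, Pola1 against both WT groups, and Gins4, Orc6, Prim1 and Rfc3 in F266A -dox against WT +dox. In the order of the counts above, a limma adjusted p under 0.01 left 0, 3, 2, 2, 10 and 0 calls. It left 15.8%, 17.6%, 7.85%, 14.9%, 36.6% and 5.84% of all genes called. A 2-fold minimum left 0 in each of the 7 tests, with 0.402% to 5.47% of all genes called. Without an expression filter there were 4 calls in F266A +dox against WT +dox, 4 in WT and 3 in F266A withdrawal and 0 in F266A +dox against WT -dox, while the shares of all genes called also fell, to 13.5%, 15.4%, 8.45% and 5.82%. With a minimum of 100 there were 11 in F266A +dox against WT +dox and 2 in F266A +dox against WT -dox. The shares of all genes called there were 35.9% and 18.1%. A trended and robust variance prior gave 15 in F266A +dox against WT +dox (4 higher, 11 lower) and 14 in F266A -dox against WT -dox (3 higher, 11 lower). It gave 9 in F266A +dox against WT -dox and 3 in the interaction, all of them below 0. The shares of all genes called in these 4 tests were 32.5%, 31.2%, 18.3% and 9.3%. Each probe set on its own gave 3, 4, 5 and 0 in F266A +dox against WT +dox, WT withdrawal, F266A -dox against WT -dox and F266A +dox against WT -dox. Gene-wise variances gave 2 and chromosome centring 3 in F266A withdrawal, with 6.23% and 19.6% of all genes called. The single call of F266A +dox against WT -dox became 0 with arrays centred on their medians or the brightest probe set, and 2 with chromosome centring. The shares of all genes called there were 12.3%, 13.8% and 14.3%, in that order. The cause of these moves was not tested.

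Leaving out 1 array gave 1 to 7 calls in F266A +dox against WT +dox (1 without F266A +dox replicate 2 or WT +dox replicate 1, 2 without F266A +dox replicate 1 or WT +dox replicate 2). The share of all genes called moved too, to 19.5%, 18.7%, 16.2% and 20.4% in those 4 fits, against 28.3%. It gave 3 to 8 in WT withdrawal (3 without WT -dox replicate 1 or WT +dox replicate 2, 4 without WT -dox replicate 2 or WT +dox replicate 1) and 1 to 6 in F266A withdrawal (1 without F266A +dox replicate 1, 2 without F266A +dox replicate 2 or F266A -dox replicate 2, 3 without F266A -dox replicate 1). F266A -dox against WT -dox had 2 to 9 calls (2 without either WT -dox array, 4 without F266A -dox replicate 2, 5 without F266A -dox replicate 1) and F266A -dox against WT +dox 10 to 16 (10 without WT +dox replicate 2, 11 without F266A -dox replicate 1). F266A +dox against WT -dox had 0 whichever of the 8 arrays was left out. In the fits named here for withdrawal and for F266A -dox against either WT group, the share of all genes called also fell below that with all 8 arrays. The lower counts are thus not particular to the members. With the brightest probe set alone, Rfc1 in F266A -dox against WT +dox became 0.0057, Orc2 0.23 and Cdc45 -0.43. Deviations of same-numbered arrays correlated at 0.165 and 0.129 within lines and -0.176 to -0.111 between them. The labels do not say that a replicate number is shared between groups, and whether arrays were paired was not tested. With the replicate number as a block, calls were 6, 4, 5, 7, 16, 0 and 0 in the order above. The shares of all genes called were 26%, 28.8%, 17.4%, 24.9%, 48.7%, 11.7% and 3.78%. With a crossed block, chosen after seeing the data, calls were 8, 7, 6, 11, 19, 2 and 0. The shares of all genes were then 31.9%, 35.2%, 23.7%, 31%, 54%, 16.1% and 7.5%.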

Other observations

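Regulators of S phase entry, a list of 21 genes, were called in both directions: 7 were higher and 6 lower in F266A -dox than in WT +dox cells (61.9%, beside 50.9% of all tested genes, limma). Ccne2, which encodes cyclin E2, an activator of CDK2, read 8.61 and 8.33 in F266A -dox, 7.98 and 7.98 in F266A +dox, 8.13 and 8.21 in WT -dox and 7.23 and 7.43 in WT +dox arrays. F266A -dox lay above and WT +dox below all other arrays, 1.14 apart (adjusted p = 1.75e-05). Cdkn1b, the CDK inhibitor p27, read 9.12 and 9.11 in F266A -dox, 9.51 and 9.53 in F266A +dox, 9.66 and 9.57 in WT -dox and 9.97 and 10.15 in WT +dox arrays. Here the order was reversed, and no 2 groups overlapped (F266A -dox minus WT +dox -0.95, adjusted p = 1.07e-05). E2f8, a repressor of E2F targets, was higher (0.71) in that comparison. Rbl2, the pocket protein p130, was called lower in all 4 comparisons described here, but read 5.08 and 4.96 in F266A -dox and 5.35 and 5.39 in WT -dox arrays, under the minimum of 5.64, beside 5.65 and 5.61 in F266A +dox and 5.96 and 5.97 in WT +dox arrays, so no fold is given for it. In F266A +dox against WT +dox cells 5 were higher and 4 lower (42.9%, beside 28.3% of all genes; Ccne2 0.65, E2f8 0.31, Cdkn1b -0.54). WT withdrawal raised 6 and lowered 4 (47.6%, beside 31.5%; Ccne2 0.84, E2f8 0.70, Cdkn1a, the inhibitor p21, -0.78), and F266A withdrawal raised 4 and lowered 6 (47.6%, beside 19.5%; Ccne2 0.49, E2f8 0.40, Cdkn1b -0.41).

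Of 9 measured genes that assemble or mark chromatin behind the fork, 3 were higher and 4 lower in F266A -dox than in WT +dox cells (77.8% called, beside 50.9% of all genes). Slbp, which binds the ends of histone mRNAs, read 9.24 and 9.22 in F266A -dox, 9.08 and 8.97 in F266A +dox, 8.98 and 9.06 in WT -dox and 8.42 and 8.69 in WT +dox arrays. Both WT +dox arrays were below all others, by 0.67 from F266A -dox (adjusted p = 0.000252). The histone chaperone Asf1a was higher (0.43) and Chaf1b, a subunit of chromatin assembly factor 1 (-0.36), and Uhrf1, which recruits DNMT1 to hemimethylated DNA (-0.30), were lower. In F266A +dox against WT +dox cells 2 were higher and 2 lower (44.4%, beside 28.3%; Slbp 0.47, Asf1a 0.21, Chaf1b -0.28, Uhrf1 -0.23), WT withdrawal raised 3 and lowered 1 (44.4%, beside 31.5%; Slbp 0.47, Asf1a 0.38, Dnmt1 -0.20), and F266A withdrawal raised 2 (22.2%, beside 19.5%; Asf1b 0.37, Asf1a 0.21).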
